A study of Mus musculus with 9 samples.

Results

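The 10 BCL2 family genes described here were followed through mouse embryonic fibroblast (MEF) cultures on their way to induced neurons (iNs): the survival genes Bcl2, Bcl2l1 (BCL-XL) and Mcl1, the pore-forming effectors Bax and Bak1, and the BH3-only genes Bcl2l11 (BIM), Bbc3 (PUMA), Pmaip1 (NOXA), Bid and Bad. The 10 members were taken by gene symbol, and all 10 were among the 30406 gene identifiers that the tables of all 9 libraries shared. All 10 passed the filter on low counts in each comparison given below, apart from Pmaip1 in 1 fit within a single cluster. BCL2 family proteins meet at the outer membrane of mitochondria, where BAX and BAK open pores that release cytochrome c and so start the caspase cascade. The survival proteins hold BAX and BAK in check, and BH3-only proteins, which are induced or activated by stress, block the survival proteins or activate the effectors directly. Developing neurons are known to depend on this balance, with BIM, PUMA and HRK among the BH3-only proteins that act when neurotrophic support is lost and BCL-XL a main survival protein of young neurons.

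The cells came from MEF cultures that had received neuron-inducing transcription factors on lentiviruses, together with a reverse transactivator that lets doxycycline turn the factors on. All 9 libraries carried this treatment, so no untransduced culture served as a control here. Cultures were WT, Per1-/- or Per2-/- and were sampled on days 4, 7 and 10 of reprogramming, with 1 10x Genomics 3′ library for each combination. The mutants carried, per the study's methods, the alleles Per1tm1Drw and Per2tm1Drw, the MEFs came from several embryos per preparation after removal of the head and heart, and the labels give no pairing of libraries by preparation. Each value of a genotype on a day therefore rests on 1 library, and a p-value below measures the spread between these libraries.

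Of 95603 barcodes, 73557 cells were kept, and 7263 of them (9.87%) fell in 2 clusters called neuron-like. Day 4 libraries held 1522, 1642 and 1111 neuron-like cells (WT, Per1-/-, Per2-/-), day 7 libraries 738, 272 and 738, and day 10 libraries 173, 302 and 765. Fibroblast-like cells (40152), macrophage-like cells (6475) and Schwann-like cells (2521) served as the main comparisons, with smaller classes of skeletal muscle-like (5393), astrocyte-like (987) and mesothelial-like cells (397). The members and the other apoptosis genes were kept out of the clustering that set these classes. CPM are UMI counts scaled to a common library total, and normalized CPM adjust that total by a TMM factor set over all class sums. In neuron-like cells the 20 neuronal markers summed to 4081 to 10678 normalized CPM over libraries. The 15 fibroblast markers summed to 372 to 694 and the 15 macrophage markers to 19.7 to 149 normalized CPM. In fibroblast-like cells the fibroblast markers summed to 19627 to 40208 normalized CPM. At least 16 of the 20 neuronal markers were found in Schwann-like cells, at 828 to 2164 normalized CPM in all. Libraries held 126625215 to 353198559 UMI (unique molecular identifiers, each standing for a counted RNA molecule), and the WT day 10 library stood apart, at 3552 UMI in its median barcode and with 55.4% of barcodes passing the quality limits. Of the 72898 barcode sequences among the cells kept, 657 occurred in more than 1 library. Per1 and Per2 read at their 3′ ends were not lost in the mutants (Per1 at 9.12 to 10.3 CPM over all cells of the Per1-/- libraries and 6.31 to 7.79 CPM in WT, Per2 at 4.99 to 6.42 CPM in Per2-/- and 2.58 to 3.02 CPM in WT), so these tags did not check the genotype labels.

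Bcl2l11, Mcl1 and Bid are the 3 members whose difference between neuron-like and fibroblast-like cells shifted past the threshold on both later days, as described further on, and their start sites are shown for that reason. The sequences are RefSeq promoters of assembly GRCm38.p6, from 250 bases before to 50 bases after the start of the gene, printed 5′ to 3′ on the strand of the gene. The windows lie at chr2:128125788-128126087 (plus strand) for Bcl2l11, chr3:95658471-95658770 (plus strand) for Mcl1 and chr6:120916775-120917074 (minus strand) for Bid. Capitals mark matches to 3 motifs searched on both strands: CAGCTG, an E-box, TGTTTAC, a forkhead site of the kind that FOXO factors bind upstream of Bcl2l11, and CACGTG, the E-box of the clock factors.
Bcl2l11: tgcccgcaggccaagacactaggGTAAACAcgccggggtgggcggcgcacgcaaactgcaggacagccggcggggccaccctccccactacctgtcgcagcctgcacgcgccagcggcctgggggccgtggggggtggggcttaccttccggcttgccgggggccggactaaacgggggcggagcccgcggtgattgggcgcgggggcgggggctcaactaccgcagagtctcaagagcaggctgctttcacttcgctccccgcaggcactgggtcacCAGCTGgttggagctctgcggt
Mcl1: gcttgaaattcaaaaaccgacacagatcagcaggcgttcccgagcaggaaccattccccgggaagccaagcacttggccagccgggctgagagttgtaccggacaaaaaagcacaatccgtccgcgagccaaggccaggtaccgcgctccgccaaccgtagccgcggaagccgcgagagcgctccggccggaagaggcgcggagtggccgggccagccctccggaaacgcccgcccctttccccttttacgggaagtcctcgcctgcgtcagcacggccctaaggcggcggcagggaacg
Bid: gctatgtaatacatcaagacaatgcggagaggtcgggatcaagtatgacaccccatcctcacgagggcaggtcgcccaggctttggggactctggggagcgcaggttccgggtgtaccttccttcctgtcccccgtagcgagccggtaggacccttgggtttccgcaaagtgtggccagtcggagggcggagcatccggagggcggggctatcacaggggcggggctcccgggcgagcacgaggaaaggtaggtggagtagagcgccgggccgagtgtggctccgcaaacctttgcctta
The Bcl2l11 window held 1 CAGCTG and 1 forkhead match, the latter on the opposite strand and so printed as GTAAACA, and the Mcl1 and Bid windows held none of the 3. Over all 32851 RefSeq promoters of the same length, 16.3% held CAGCTG, 3.65% the forkhead motif and 7.15% CACGTG. A second RefSeq start of Bcl2l11 at chr2:128127325-128127624 held none. Among members not printed here, 1 Bbc3 window held 1 forkhead match, another held 1 CACGTG, and the Bax window held 2 CACGTG.

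The 3 survival genes had different profiles over the cell classes. Levels are given as normalized CPM, in which the library size of a class sum was adjusted by a TMM factor set over all class sums together. Bcl2 ranged from 5.09 to 11.1 normalized CPM in neuron-like cells over the 9 libraries, with a median of 8.57, the lowest median of the 7 classes on this scale (with total UMI scaling the mesothelial-like median was lower, 8.85 against 10.3). Its median was 12.8 in fibroblast-like cells (range 9.91 to 15.2), 26.6 in macrophage-like cells (18.8 to 28.3) and 48.5 in Schwann-like cells (38.5 to 54.6). Neuron-like and fibroblast-like ranges of Bcl2 overlapped, and every Schwann-like library lay above every neuron-like library. The macrophage-like libraries also lay above on this scale, but not with total UMI scaling (12.6 and up against neuron-like values up to 13.3). Bcl2l1 went the other way against fibroblast-like cells, with 40.8, 47.7 and 62.7 normalized CPM (lowest, median, highest) in neuron-like cells and 27.7, 31.8 and 33.7 in fibroblast-like cells, 2 ranges that did not meet. Its levels were higher in macrophage-like (median 90.5) and skeletal muscle-like cells (median 86.0). Mcl1, whose short-lived protein is needed for survival of many cell types, had medians of 71.4 normalized CPM in neuron-like cells (54.1 to 131), 114 in fibroblast-like cells (82.0 to 142) and 382 in macrophage-like cells (276 to 425). The macrophage-like level of Mcl1 stood clear of that of every other class. For Bcl2 and Bcl2l1, neighbors in the order of the 7 class medians overlapped in range throughout.

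**Figure D1:**
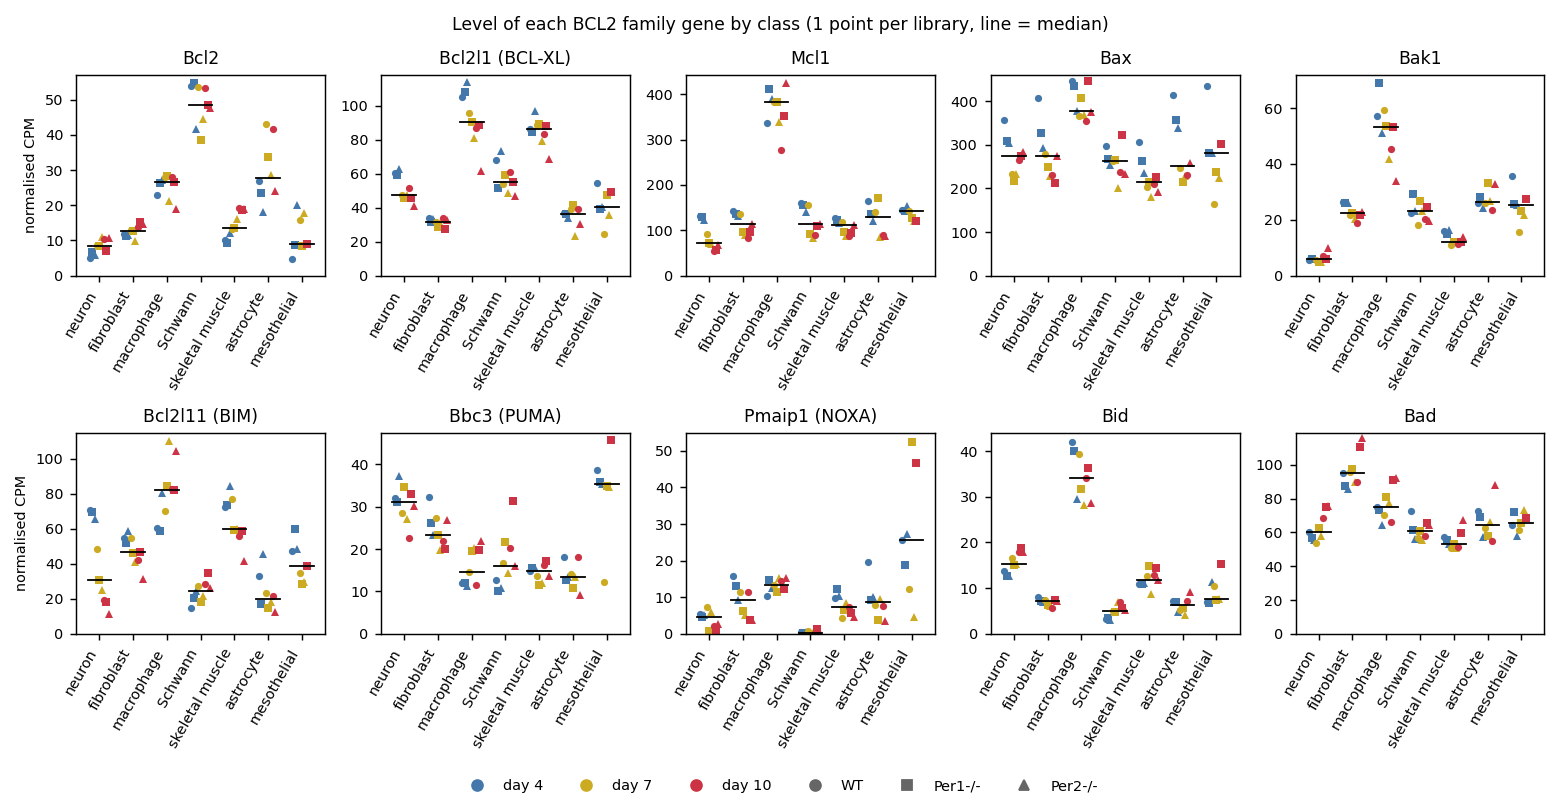
Level of each of the 10 genes in 7 cell classes, in normalized CPM on a linear axis from 0. Each point is 1 library (color for day, shape for genotype) and the line is the median over libraries. Bak1 is lowest in neuron-like cells, with a median of 6.08 and no overlap with the next class, and Mcl1 and Bid are highest in macrophage-like cells.

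The 2 effectors differed from each other in neuron-like cells. Bax, which moves from the cytosol to mitochondria when activated, had similar medians in neuron-like (274 normalized CPM, 217 to 358), fibroblast-like (275) and Schwann-like cells (263) and a median of 378 in macrophage-like cells. Bak1, which sits in the mitochondrial membrane, had 4.93, 6.08 and 10.1 normalized CPM in neuron-like cells (lowest, median, highest) against 19.0, 22.4 and 26.3 in fibroblast-like cells. The highest neuron-like library of Bak1 lay below the lowest library of each of the 3 main comparison classes and of the skeletal muscle-like class (median 12.1). Bak1 shares its locus (chromosome 17, 27019810 to 27029009, minus strand, GRCm38) with Ggnbp1 on the other strand, and Bax (chromosome 7, 45461697 to 45466898) overlaps Gm45808 on its own strand. Bid overlaps Gm44260 and Bcl2 overlaps Gm37053 and Mir3473f, also on the same strand, so reads of Bax, Bid and Bcl2 may be split.

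Among the BH3-only genes, Bid and Bcl2l11 stood out by class and by spread. Bid, whose protein is cut by caspase-8 to become active, had 12.6, 15.3 and 18.9 normalized CPM in neuron-like cells (lowest, median, highest), a median of 7.16 in fibroblast-like cells (5.6 to 8.04), 34.2 in macrophage-like cells (28.3 to 42.1) and 4.89 in Schwann-like cells (3.09 to 7.0). Every neuron-like library thus lay above every fibroblast-like and Schwann-like library for Bid, and below every macrophage-like library with TMM but not with total UMI scaling (21.9 at most against 19.2 at least). Bcl2l11 spread more widely over neuron-like libraries than any other member tested except Pmaip1 when the highest is divided by the lowest, from 11.2 to 70.5 normalized CPM with a median of 31.0. Fibroblast-like (31.1 to 58.5) and macrophage-like libraries (58.8 to 110) of Bcl2l11 overlapped that range. Bbc3, a p53 target, had medians of 31.0 normalized CPM in neuron-like, 23.4 in fibroblast-like, 14.6 in macrophage-like and 15.9 in Schwann-like cells. Bad, which is held inactive by phosphorylation, had medians of 60.1 in neuron-like (53.6 to 75.7) and 95.1 in fibroblast-like cells (85.5 to 116), ranges that did not meet here but did with total UMI scaling (63.8 to 87.4 and 77.0 to 101). Pmaip1, whose protein binds MCL1, was sparse: its neuron-like libraries held 0.71 to 7.34 normalized CPM (median 4.68), and the Schwann-like class held 17 UMI in all 9 libraries together, with 1 library at 0.

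Neuron-like cells were compared with fibroblast-like cells in edgeR, with the library as a block, to ask how the family differs between the reprogrammed cells and the cells of the same cultures and days that stayed fibroblast-like, which are not the starting MEFs. Of the 10 members, 9 passed an adjusted p of 0.05, 3 higher and 6 lower in neuron-like cells, in a comparison where 79.0% of 17470 genes passed. The share of members called was therefore close to that of all genes, and the median log2 fold was −0.53 over the members and −0.02 over all genes tested. Bak1 fell furthest, by 2.0 ± 0.12 (SE) on the log2 scale (adjusted p 1.46e-08, edgeR), and was lower in 9 of 9 libraries. Bid was higher by 1.06 ± 0.11 (adjusted p 1.86e-06, edgeR) and Bcl2l1 by 0.59 ± 0.06 (adjusted p 4.55e-06, edgeR), each in 9 of 9 libraries. These 3 calls, and those of Bad (−0.72 ± 0.05, adjusted p 7.57e-08, edgeR, lower in 9 of 9) and Pmaip1 (−1.24 ± 0.26, adjusted p 9.50e-04, edgeR, lower in 8 of 9), held in all 19 alternative settings run. Bcl2 (−0.76 ± 0.13, lower in 8 of 9) and Mcl1 (−0.51 ± 0.08, lower in 9 of 9) also passed, but both lost the call when counts were scaled to total UMI in place of TMM (log2 folds −0.29 and −0.04), and Mcl1 lost it without the library block as well. Bcl2l11 (−0.56 ± 0.21, adjusted p 0.0271, edgeR, lower in 6 of 9) and Bbc3 (0.22 ± 0.09, adjusted p 0.0449, edgeR, higher in 8 of 9) lost their calls in 7 and 8 of 19 settings, with adjusted p up to 0.717 and 0.193. Bcl2l11 lost it without any of the Per1-/- and Per2-/- day 7 and the WT and Per1-/- day 10 libraries (−0.54 to −0.46), and Bbc3 without any of the Per2-/- libraries or the Per1-/- libraries of days 7 and 10 (0.17 to 0.21). The 3 libraries in which Bcl2l11 was higher in neuron-like cells were those of day 4, and it was lower on days 7 and 10. Without the WT day 10 library 8 members passed. Bax did not pass with TMM scaling (−0.11 ± 0.07, adjusted p 0.191, edgeR), and its sign turned with total UMI scaling (0.36, adjusted p 2.34e-04 within a range of 2.34e-04 to 0.856 over its alternatives).

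The choice of scale moved the whole comparison. Scaling to total UMI moved the median log2 fold of all genes up by 0.47 against fibroblast-like, 0.62 against macrophage-like and 0.18 against Schwann-like cells, and down by 0.17 for macrophage-like against fibroblast-like cells. The part of called genes that were higher in neuron-like cells went from 48.2% to 66.2% against fibroblast-like and from 54.2% to 70.0% against macrophage-like cells. The 50 highest genes of a sum took 19.3% to 20.9% of UMI in neuron-like, 25.2% to 26.9% in fibroblast-like and 25.6% to 28.8% in macrophage-like cells. Folds below are relative to the TMM scale.

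**Figure D2:**
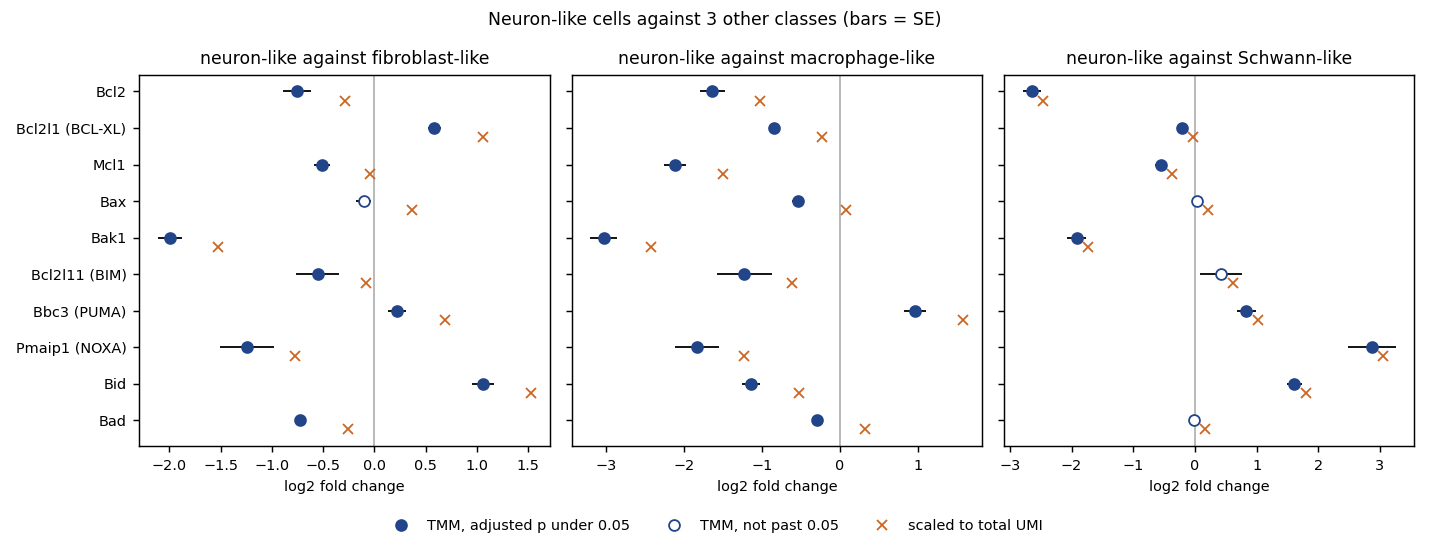
Log2 fold change of the 10 genes in neuron-like cells against fibroblast-like, macrophage-like and Schwann-like cells (edgeR, 9 libraries a class, bars are SE). Filled circles passed an adjusted p of 0.05, open circles did not, and crosses give the fold scaled to total UMI. Bak1 lies below 0 on both scales in all 3 panels, and Bax and Bad change sign between the scales in 2 panels or fewer.

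Against macrophage-like cells, the immune class of these cultures, all 10 members passed, 1 higher and 9 lower, where 85.1% of 15233 genes passed. The median log2 fold was −1.18 over the members and 0.15 over all genes. Bak1 (−3.03 ± 0.17), Mcl1 (−2.11 ± 0.14), Pmaip1 (−1.83 ± 0.28), Bcl2 (−1.63 ± 0.16) and Bid (−1.14 ± 0.11) were lower. On the TMM scale none of these 5 overlapped between the 9 neuron-like and the 9 macrophage-like libraries, and with total UMI scaling this held for Bak1 and Mcl1 but not for Bcl2, Pmaip1 or Bid. The share of all genes with ranges apart was not counted, in this or any other comparison given. Bbc3 was higher by 0.97 ± 0.14 and was the member whose neuron-like libraries all lay above the macrophage-like ones. Bcl2l1 (−0.84 ± 0.07) and Bcl2l11 (−1.23 ± 0.35) were lower with overlapping ranges, and Bcl2l11 lost its call with total UMI scaling (adjusted p 0.104, edgeR, the highest of its 19 alternatives). For Bax (−0.54) and Bad (−0.29) the sign turned with total UMI scaling (0.07 and 0.33). With macrophage-like and fibroblast-like cells set against each other, 10 of 10 members passed, 8 higher and 2 lower in macrophage-like cells, where 85.3% of 16428 genes passed, with Bid (2.22 ± 0.08), Mcl1 (1.62 ± 0.07) and Bcl2l1 (1.45 ± 0.10) the members with the largest folds and Bbc3 (−0.71 ± 0.14) and Bad (−0.42 ± 0.04) lower. These comparisons share libraries, so their folds are not independent.

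Schwann-like cells, glia of the peripheral nerve, gave another pattern. Here 7 members passed, 3 higher and 4 lower in neuron-like cells, where 77.9% of 13259 genes passed, and the median log2 fold was 0.01 over members and 0.05 over all genes. Bcl2 was lower by 2.64 ± 0.15 on the log2 scale, Bak1 by 1.92 ± 0.15 and Mcl1 by 0.55 ± 0.09, and Bcl2 and Bak1 did not overlap between the classes. Bid was higher by 1.61 ± 0.12 and Bbc3 by 0.83 ± 0.16, each in 9 of 9 libraries. Pmaip1 was higher by 2.87 ± 0.39, a fold that rests on the 17 Schwann-like UMI and depends on how counts near 0 are treated. Bcl2l1 passed with a small difference (−0.21 ± 0.06), and Bax, Bcl2l11 and Bad did not pass. With total UMI scaling the call of Bcl2l1 was lost and Bad turned in sign and was called higher. Bcl2l11 was called higher (log2 fold 1.08) once the day 10 libraries were left out.

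The make-up of the survival genes can be stated within a library, where scaling between classes plays no part. Of the UMI of Bcl2, Bcl2l1 and Mcl1 together, Bcl2l1 took a median of 34.2% in neuron-like cells, 19.8% in fibroblast-like cells, 18.9% in macrophage-like cells and 25.8% in Schwann-like cells. Mcl1 took 56.9% in neuron-like, 70.6% in fibroblast-like and 75.4% in macrophage-like cells, and Bcl2 took 6.27%, 7.61% and 5.14%. Skeletal muscle-like cells had the highest Bcl2l1 share (43.1%) and Schwann-like cells the highest Bcl2 share (20.9%). Within neuron-like cells the median Mcl1 share went from 66.2% on day 4 to 56.9% on day 7 and 52.3% on day 10. That of Bcl2l1 went from 30.6% to 36.2% and 41.4% and that of Bcl2 from 3.05% to 6.83% and 9.07%. The Mcl1 share also fell in fibroblast-like (75.7%, 69.9% and 69.3%) and skeletal muscle-like cells (56.9%, 48.6% and 46.8%), so its fall was not particular to neuron-like cells. In macrophage-like cells it did not fall (73.4%, 76.3% and 75.4%). The Bcl2 share rose by day 10 from 6.37% to 10.6% in fibroblast-like and from 4.58% to 9.49% in skeletal muscle-like cells. These shares compare classes and days for the same gene and were not tested.

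**Figure D3:**
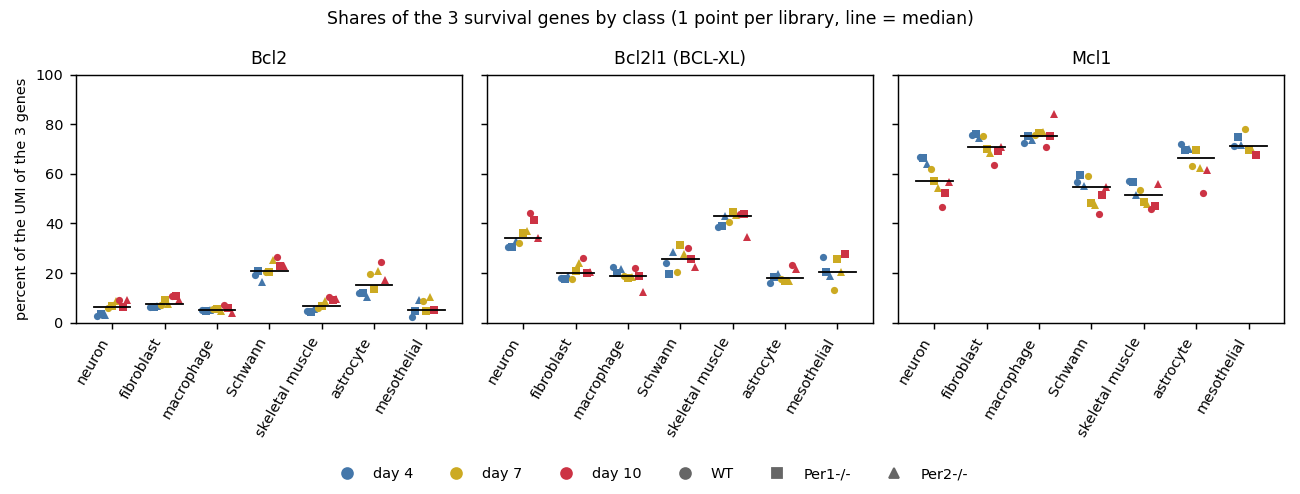
Share of Bcl2, Bcl2l1 and Mcl1 in the summed UMI of the 3 genes, in percent, by class. Each point is 1 library (color for day, shape for genotype) and the line is the median. The median neuron-like Mcl1 share goes from 66.2% on day 4 to 52.3% on day 10, with the day 7 and day 10 libraries overlapping. The fibroblast-like median goes from 75.7% to 69.3%.

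Over the days, Bcl2l11 fell furthest of the members in neuron-like cells, and Mcl1 fell on both later days. Bcl2l11 stood at 70.5, 69.4 and 65.6 normalized CPM in the day 4 libraries (WT, Per1-/-, Per2-/-). The day 7 libraries held 48.7, 31.0 and 25.2, and the day 10 libraries 19.2, 18.5 and 11.2. The 3 days did not overlap. The log2 change was −0.98 ± 0.16 on day 7 (adjusted p 0.00107, edgeR) and −2.10 ± 0.17 on day 10 (adjusted p 2.85e-06, edgeR) against day 4, lower in 3 of 3 genotypes each time. The share of neuron-like cells with a Bcl2l11 UMI, after thinning each cell to 3000 UMI, was 16.3% to 18.9% on day 4, went to 8.67% to 15.7% by day 7 and reached 2.49% to 6.62% by day 10. Thinning left out 4 neuron-like cells, and without it the shares of Bcl2l11 were 41.0% to 54.2%, 28.0% to 40.9% and 12.9% to 28.9% (Csf1r 0% to 8.63%). Csf1r is a macrophage receptor gene that neurons should lack. It had a UMI in 0.244% to 0.270% of the same thinned cells on day 4 and in 0% to 1.97% on day 10. The lowest Bcl2l11 share was that of Per2-/- day 10. Among thinned macrophage-like cells of day 10, 78.1% to 87.3% held Csf1r and 17.5% to 19.7% held Bcl2l11. The Csf1r share is therefore not a like measure of stray Bcl2l11. Summed macrophage markers in the neuron-like class went from 19.7 to 47.4 normalized CPM on day 4 to 27.9 to 149 on day 10. Their part in the change was not tested. Mcl1, with genotypes ordered alike, held 131, 129 and 122 normalized CPM on day 4, then 91.6, 71.4 and 69.7 on day 7 and finally 54.1, 57.7 and 67.5 on day 10. Its log2 change was −0.69 ± 0.11 on day 7 (adjusted p 0.00123, edgeR) and −1.04 ± 0.12 on day 10 (adjusted p 2.51e-05, edgeR), again lower in 3 of 3.

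In all, 5 members passed on day 7 against day 4, 1 higher and 4 lower, where 23.1% of 14221 genes passed, and 7 passed on day 10 against day 4, 3 higher and 4 lower, where 47.4% passed. The median log2 change of the members was −0.16 on day 7 and −0.19 on day 10, against −0.01 and −0.02 over all genes. With a low-UMI cluster of 1371 cells (23.9% of the WT day 10 cells), which a limit set after seeing the data left unnamed, counted as neuron-like, only Mcl1 (−0.70) and Bax (−0.48) passed on day 7, and Bcl2l11 kept its size (−1.0) but not its call (adjusted p 0.0643, edgeR, within a range of 1.32e-16 to 0.944 over its alternatives). Both comparisons share the day 4 libraries. Bcl2 rose from 5.09, 6.65 and 5.82 normalized CPM on day 4 to 8.66, 8.57 and 11.1 on day 7 and 10.5, 6.92 and 10.8 on day 10, by 0.71 on the log2 scale at both times (SE 0.19 and 0.20, adjusted p 0.0187 and 0.0109, edgeR). Bcl2l1 fell from 60.2, 59.4 and 62.7 normalized CPM on day 4 to 47.7, 45.5 and 47.7 on day 7 and 51.3, 45.7 and 40.8 on day 10, by 0.34 and 0.38 on the log2 scale. These calls were near the threshold: on day 7 that of Bcl2 was lost without any of the 3 day 7, the WT day 4 or the Per2-/- day 4 libraries (0.60 to 0.75), and that of Bcl2l1 without any of the 3 day 7 or the 2 mutant day 4 libraries (−0.37 to −0.26). On day 10 that of Bcl2 was lost without any of the WT and Per2-/- libraries of days 4 and 10 (0.56 to 0.68) and that of Bcl2l1 without either Per2-/- library of those days (−0.30 to −0.24). Bax fell by 0.47 ± 0.09 on day 7 (adjusted p 0.00258, edgeR), from 358, 310 and 303 normalized CPM to 233, 217 and 234, and stood at 264, 274 and 284 on day 10, which did not pass against day 4 (−0.20 ± 0.09, adjusted p 0.0836, edgeR).

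Bid and Bad rose by day 10. Bid went from 13.8, 12.6 and 12.8 normalized CPM on day 4 to 17.8, 18.9 and 18.0 on day 10, a log2 change of 0.52 ± 0.11 (adjusted p 0.00276, edgeR), and Bad from 60.1, 56.6 and 55.5 to 68.4, 75.3 and 75.7, a change of 0.39 ± 0.09 (adjusted p 0.00492, edgeR). Neither gene overlapped between the 2 days. Bad was also lowest in Per2-/- day 4 and highest in Per2-/- day 10 in fibroblast-like (85.5 and 116) and macrophage-like cells (64.4 and 92.1). Its change in neuron-like against fibroblast-like cells did not pass as an interaction. Pmaip1 fell by 1.33 ± 0.41 on day 10 (adjusted p 0.0192, edgeR), from 4.68 to 5.48 normalized CPM down to 1.05 to 2.76, the latter resting on 5 to 37 UMI a library. Bak1 (0.44 ± 0.20) and Bbc3 (−0.19 ± 0.14) did not pass on day 10. Without the WT day 10 library, which stood apart in depth, Bcl2 and Pmaip1 lost their day 10 calls, and the other 5 calls held. Pmaip1 also lost its call without the Per1-/- day 10 library (−1.23 in either case). The day 10 libraries were made with another Cell Ranger version and feature table than those of days 4 and 7, which cannot be told apart from day 10 itself.

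**Figure D4:**
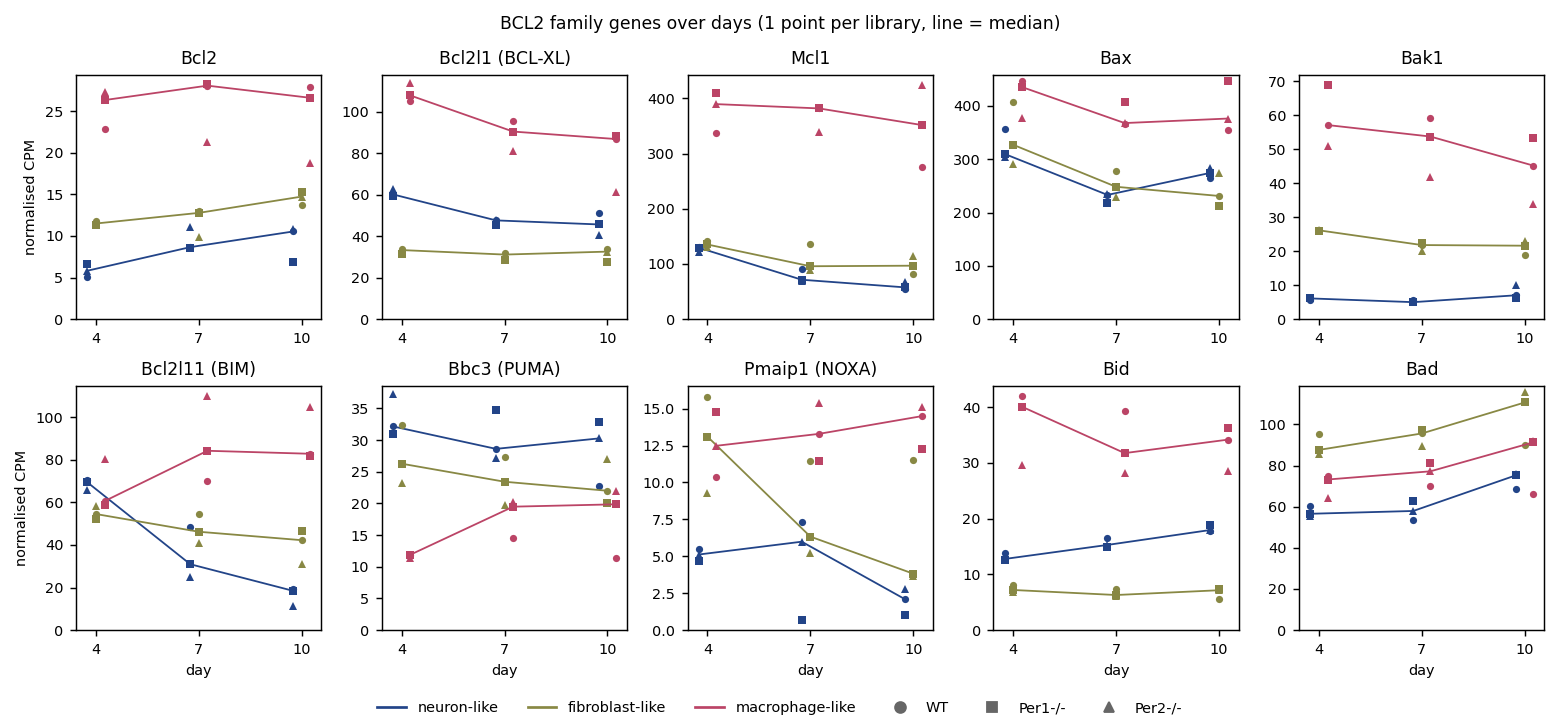
Level of the 10 genes on days 4, 7 and 10 in neuron-like, fibroblast-like and macrophage-like cells, in normalized CPM on linear axes from 0. Each point is 1 library (shape for genotype) and lines join the medians. Bcl2l11 in neuron-like cells steps down from 65.6 to 70.5 on day 4 to 11.2 to 19.2 on day 10, while fibroblast-like cells go from 52.0 to 58.5 on day 4 to 31.1 to 46.7 on day 10.

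The neuron-like class changed in composition over the same days. The first of its 2 clusters, led by Miat, Lhx3 and Igfbpl1 (5518 cells), held 96.6% to 97.8% of neuron-like cells on day 4, then 60.8% to 79.8% by day 7 and 6.01% to 16.9% by day 10. The other, led by Snhg11, Caly and Scg3 (1745 cells), held the rest. Scg3 and Snhg11 are both among the neuronal markers used. The summed neuronal markers of the class rose from 4081 to 4718 normalized CPM on day 4 to 8756 to 10678 on day 10. In CPM of total UMI, Bcl2l11 stood at 78.8 to 83.5 in the Miat cluster and at 18.5 to 25 in the Snhg11 cluster on day 4, at 36.4 to 70.4 and 14.9 to 23.2 on day 7, and at 39.8 to 63.3 and 11 to 19.0 on day 10. It was lower in the Snhg11 cluster on every day, with no overlap of libraries within a day. Mcl1 stood at 145 to 154 CPM of total UMI in the Miat cluster and 91.5 to 108 in the Snhg11 cluster on day 4, at 91.9 to 119 and 65.9 to 80.7 on day 7, and at 77.6 to 113 and 59.3 to 72.8 on day 10. For Bax the order was the reverse, with 353 to 409 CPM against 450 to 653 on day 4 and 197 to 262 against 312 to 331 on day 10. Bcl2l1 on day 4 held 69.4 to 74.6 CPM in the Miat cluster and 43.1 to 48.4 in the Snhg11 cluster. The Snhg11 cluster had as few as 34 cells in a library on day 4, with 9 Bcl2l11 UMI in the smallest, and the Miat cluster as few as 20 cells on day 10.

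**Figure D5:**
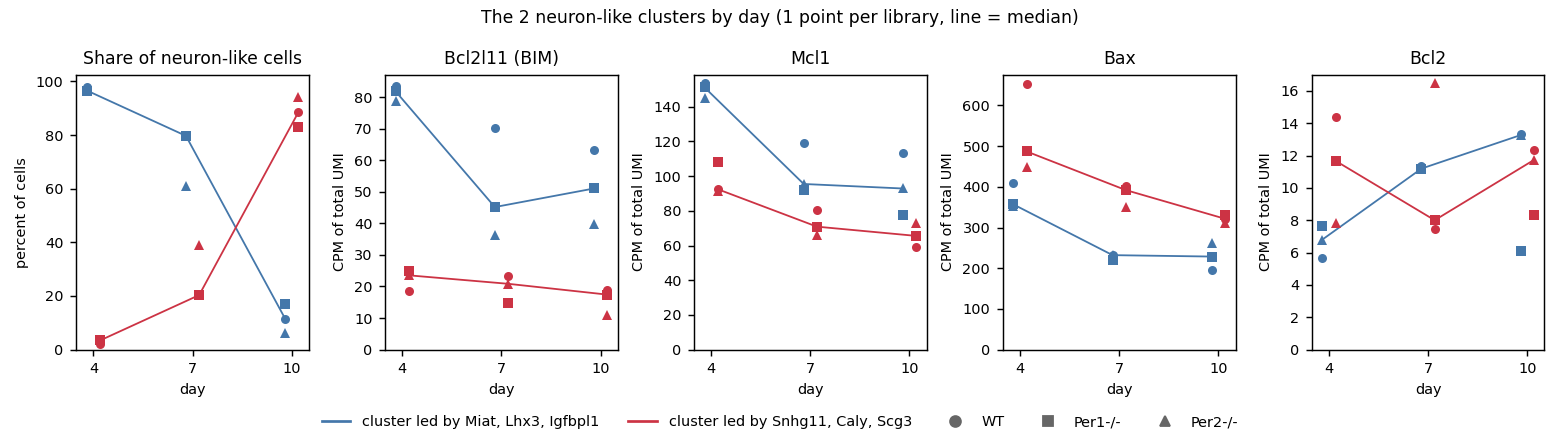
Share of neuron-like cells in each of the 2 neuron-like clusters, in percent, and the level of Bcl2l11, Mcl1, Bax and Bcl2 in each, in CPM of total UMI, by day. Each point is 1 library and lines join medians. The Miat cluster goes from 96.6% or more of the cells on day 4 to 16.9% or less on day 10, and Bcl2l11 lies lower in the Snhg11 cluster than in the Miat cluster on each day.

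Fits within 1 cluster at a time, added after these values were seen, gave smaller day 10 changes for Bcl2l11 and Mcl1 and larger ones for Bax. On day 10 against day 4, Bcl2l11 changed by −0.68 on the log2 scale within the Miat cluster (adjusted p 0.106, edgeR) and by −0.51 within the Snhg11 cluster (adjusted p 0.363, edgeR), against −2.10 over both, where its adjusted p ranged from 1.76e-60 to 0.363 over 19 alternatives. Mcl1 changed by −0.68 within the Miat cluster, which passed, and by −0.52 within the Snhg11 cluster, which did not. Bax fell by 0.67 on the log2 scale within each of them, and both changes passed, although the change over the whole class had not. On day 7 against day 4, Bcl2l11 (−0.71), Mcl1 (−0.55), Bax (−0.70) and Bcl2 (0.76) passed within the Miat cluster and no member passed within the Snhg11 cluster. Far fewer of all genes passed on day 7 within the Snhg11 cluster than within the Miat cluster, with counts in the closing section. The day 10 changes of Bid, Bad and Bcl2 did not pass within either cluster. That of Bcl2 was 0.67 in the Miat cluster and −0.13 in the Snhg11 cluster, where the value of Bad was negative too. A fit within a cluster has fewer cells, as low as 20 or 34 a library, so a call lost there does not show that the level stayed the same.

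In fibroblast-like and macrophage-like cells the members were compared over days in fits of their own. No member passed on day 7 against day 4 in fibroblast-like cells, where 2.73% of 16977 genes passed (3 members had an unadjusted p under 0.05, and DESeq2 called 2), and none in macrophage-like cells, where 0.410% of 12678 genes passed (6 unadjusted, and none in DESeq2). Over all genes, 3499 in fibroblast-like and 2453 in macrophage-like cells had an unadjusted p under 0.05. The numbers of all genes that DESeq2 called on day 7 are given in the closing section. On day 10, Bax (−0.54 ± 0.14), Bak1 (−0.34 ± 0.09) and Pmaip1 (−1.22 ± 0.23) were lower in fibroblast-like cells, where 18.0% of genes passed, and Bcl2l1 (−0.57 ± 0.15) and Bak1 (−0.52 ± 0.12) were lower in macrophage-like cells, where 15.7% passed. On that day DESeq2 called 5 members in fibroblast-like and 2 in macrophage-like cells, while its counts of all genes called stayed within a factor of 1.5 of those of edgeR. Pmaip1 in fibroblast-like cells went from 9.29 to 15.8 normalized CPM on day 4 to 3.67 and 3.82 in the mutants on day 10, with the WT day 10 library at 11.5. Pooled over libraries, its level ran from 2.06 to 28.6 CPM of total UMI over the 8 fibroblast-like clusters and that of Bax from 168 to 481, both highest in a cluster led by Angptl7 (2700 cells), and the part of the cluster make-up of each library in these changes was not tested. These calls were near the threshold, and without the WT day 10 library 2 members passed in fibroblast-like cells, Pmaip1 and Bad, the latter not called with all libraries, and none in macrophage-like cells. In macrophage-like cells, the call of Bcl2l1 was lost without any 1 of 8 libraries, all but WT day 4 (−0.69 to −0.36), and that of Bak1 without any 1 of 7, all but WT days 4 and 7 (−0.62 to −0.40). In fibroblast-like cells, that of Bak1 was lost without any 1 of 8, all but Per2-/- day 10 (−0.37 to −0.27), that of Bax without any 1 of 7, all but Per2-/- days 4 and 10 (−0.55 to −0.42), and that of Pmaip1 without the Per1-/- or Per2-/- day 10 library (−1.16 to −1.01). Bcl2l11 in macrophage-like cells stood higher on day 10 than on day 4 in 3 of 3 genotypes (0.35 ± 0.11), which did not pass (adjusted p 0.0651, edgeR). Fibroblast-like cells also had fewer cycling transcripts later, with 16 cell cycle genes summing to 534 to 683 normalized CPM on day 4 and 284 to 373 on day 10. In neuron-like cells they summed to 104 to 133 normalized CPM on all days. The part of this in the members' changes was not tested.

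The difference between the neuron-like and the fibroblast-like change was itself tested, as an interaction. On day 7 against day 4, 3 members passed, where 17.4% of 17470 genes passed: Bcl2l11 (−0.76 ± 0.14, adjusted p 0.00606, edgeR), Mcl1 (−0.33 ± 0.08, adjusted p 0.0194, edgeR) and Bid (0.45 ± 0.14, adjusted p 0.0458, edgeR). On day 10, 5 passed, where 35.7% passed, namely the same 3 (Bcl2l11 −1.61 ± 0.16, Mcl1 −0.57 ± 0.08, Bid 0.65 ± 0.14) and Bak1 (0.76 ± 0.15) and Bax (0.32 ± 0.11, adjusted p 0.0473, edgeR). Without the WT day 10 library 4 members passed on day 10. With the low-UMI cluster counted as neuron-like no member passed on day 7 in edgeR (Bcl2l11 −0.75, Mcl1 −0.34, Bid 0.43). Over the whole class, Bcl2l11 thus fell by more, on the log2 scale, in neuron-like than in fibroblast-like cells on day 10. On day 7 its value hardly moved with the low-UMI cluster counted (−0.76 and −0.75), but the call was lost. Of the cells of that cluster, 1343 were in WT day 10. The day 4 libraries held 0 of them and the day 7 libraries 5, 1 and 1 (WT, Per1-/-, Per2-/-). The call of Bid on day 7 was lost without any 1 of the 6 libraries of days 4 and 7 (0.43 to 0.49), that of Mcl1 on day 7 without any 1 of the 3 day 4 libraries or WT day 7 (−0.33 to −0.27), and that of Bax on day 10 without any 1 of the WT and Per1-/- libraries (0.22 to 0.32). Within a single neuron-like cluster, Bcl2l11 and Bcl2 passed on day 7 in the Miat cluster (−0.51 and 0.71), and no member passed on day 10 in either cluster. The day 10 value of Bcl2l11 was −0.30 in the Miat cluster and 0.11 in the Snhg11 cluster.

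Genotype was compared within each class with day in the model. In edgeR no member passed for Per1-/- or Per2-/- against WT in neuron-like cells (percentages of all genes called 0 and 0.0141), in fibroblast-like cells (0 and 0) or in macrophage-like cells (0.00789 and 0). At an unadjusted p under 0.05 there were 1 and 1, 2 and 1, and 0 and 4 members in the same order, and DESeq2 called 1 member in each of the fibroblast-like comparisons and none in the other 4. Over all genes the unadjusted counts were 532 and 640 of 14221, 1485 and 1399 of 16977, and 878 and 1932 of 12678. Bcl2l11 in neuron-like cells was lower in Per2-/- than in WT on 3 of 3 days, by 0.59 ± 0.16 on the log2 scale (adjusted p 0.662, edgeR). The Snhg11 cluster, where Bcl2l11 was low, held 39.2% of the Per2-/- and 20.3% of the WT neuron-like cells on day 7, and the part of this make-up in the value was not tested. Pmaip1 in fibroblast-like cells was lower in both mutants on 3 of 3 days (−0.91 ± 0.23 in Per1-/-, −1.20 ± 0.23 in Per2-/-, adjusted p 0.456 and 0.402, edgeR). In macrophage-like cells the 4 members with an unadjusted p under 0.05 in Per2-/- were Bid (−0.50 ± 0.11), Bak1 (−0.46 ± 0.13), Bcl2l11 (0.38 ± 0.11) and Bbc3 (0.40 ± 0.17), and 4 members passed after adjustment once the Per2-/- day 4 library was left out. Over all genes of this comparison, leaving out 1 library at a time gave 0 to 1226 past the threshold, against 0 with all libraries.

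Other genes of the apoptosis pathway were read from 4 lists of 66 genes. Against fibroblast-like cells, 19 of the 57 tested were higher and 28 lower in neuron-like cells, with a median log2 fold of −0.18 against −0.02 over all genes, of which 38.1% were higher and 40.9% lower. Of the 10 other BCL2 family genes tested, 7 were higher and 2 lower, and 9 of 10 called is near the 79.0% of all genes. Hrk, a BH3-only gene known from neurons deprived of nerve growth factor, led them at 5.91 ± 0.28 on the log2 scale, with 6.67 to 32.2 normalized CPM over neuron-like libraries and 0.07 to 0.61 in fibroblast-like ones. Bik (4.09) followed, and Hrk was also the most raised against macrophage-like (6.08) and Schwann-like cells (4.97). The size of these folds depends on how counts near 0 are treated. Bik held 89 UMI over the 9 fibroblast-like libraries, and Hrk 30 in macrophage-like and 21 in Schwann-like cells. Within neuron-like cells Hrk rose from 6.67, 7.70 and 8.21 normalized CPM on day 4 to 19.7, 32.2 and 13.8 on day 7, a log2 change of 1.5 ± 0.21, and stood at 1.41 ± 0.22 above day 4 on day 10. Bok, a BAX-like family member, also rose (0.99 and 1.30), and Bmf, a BH3-only gene, fell by 1.33 on day 7 and by 2.38 on day 10 on the log2 scale, with an interaction against fibroblast-like cells of −2.15 and −3.40. Bmf thus moved in the direction of Bcl2l11 and Hrk in the other. Values within a single neuron-like cluster were taken for the 10 members only. The part of the changing cluster shares in the day changes of these and the other listed genes was therefore not tested.

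Of the 10 death receptor genes, 7 were lower and 1 higher in neuron-like than in fibroblast-like cells, with a median log2 fold of −1.64, in a comparison where 79.0% of all genes passed. Fas, the receptor of the extrinsic pathway, fell by 5.31 ± 0.35 on the log2 scale, from 22.5 to 43.5 normalized CPM in fibroblast-like libraries to 0 to 2.33 in neuron-like ones, and Casp8, the initiator caspase that cuts BID, by 3.51 ± 0.20. Ripk3 (−3.18) and Birc3 (−3.25) were also lower, and Tnfrsf21 (2.03), the receptor DR6, was the one that rose. Of 20 caspase and apoptosome genes, 6 were higher and 9 lower. Casp6 fell within neuron-like cells by 1.37 on day 7 and by 2.0 on day 10 on the log2 scale. Of 17 regulators of BCL2 proteins, 5 were higher, among them Fbxw7 (2.39), which marks MCL1 for degradation, and 10 lower, among them Bag3 (−3.10).

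Against macrophage-like cells, 20 of 61 listed genes were higher and 35 lower in neuron-like cells (46.1% and 39.0% of all genes), with Bok (3.71), Ngfr (3.32) and Fbxw7 (1.98) among the most raised. Bcl2a1b (−9.46), Bcl2a1d (−9.02), Bcl2a1a (−8.25), Naip2 (−8.78) and Naip6 (−8.36) were the lowest, and these belong to near-identical copies whose reads may be split, so the value of each copy is uncertain. The same 5 led macrophage-like over fibroblast-like cells (8.49 to 9.54), where 31 of 61 were higher and 20 lower (36.7% and 48.5% of all genes), with Tnfrsf10b (−4.10), Ngfr (−3.46), Bok (−2.70), Fas (−2.32) and Dffb (−1.10) the lowest. Bok in macrophage-like cells rested on a spread from 0 to 26.4 normalized CPM, with WT day 4 the highest library. Against Schwann-like cells, 15 of 55 were higher (40.6% of all genes), among them, beside Hrk, Bnip3 (2.18), Fbxw7 (1.64) and Tnfrsf21 (1.38), and 24 lower (37.3% of all genes), led by Ngfr (−6.53), the nerve growth factor receptor of Schwann cells, Ier3 (−4.68), Casp8 (−3.77), Bag3 (−3.66) and Bcl2l12 (−3.43). Over days, 5 of 55 listed genes rose and 9 fell in neuron-like cells on day 7 (12% and 11.1% of all genes), with Fas (−2.50) among those that fell, and 11 rose and 14 fell on day 10 (23.9% and 23.5%). In fibroblast-like cells none of the listed genes passed on day 7, and 7 of 57 rose and 11 fell on day 10 (9.79% and 8.20% of all genes), among them Bcl2l14 (2.01) and Hrk (1.75) up and Ripk3 (−1.11) and Bok (−0.76) down. In macrophage-like cells none passed on day 7, and 7 of 59 rose and 7 fell on day 10 (8.42% and 7.30%), among them Bmf (1.19) and Ddit3 (0.95) up and Bik (−2.65) and Bcl2a1d (−1.33) down. Some of these genes were near the floor. Hrk held 0.07 to 0.61 normalized CPM in fibroblast-like libraries, with as few as 6 UMI. Bik held as few as 2 UMI in a macrophage-like library, and Fas was sparse in neuron-like cells. The size of these 3 day changes is therefore uncertain. The interaction passed for 5 genes up and 10 down of 57 on day 7 (7.49% and 9.88% of all genes), with Bok (1.5) and Dynll2 (0.61) up and E2f1 (−1.14) down beside Bmf, and for 11 up and 17 down on day 10 (16.5% and 19.2%), with Bok (2.01) and Cycs (1.07) up and Casp6 (−1.86) down.

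Neuron-like cells were also split by Snap25 and Syt1, of which 5268 of 7263 had at least 1 UMI each. Bcl2 was higher in the cells with both in 8 of 9 libraries (median 10.5 against 6.18 CPM of total UMI) and Bcl2l11 lower in 8 of 9 (36.8 against 40.7), while the remaining members went the same way in 7 or fewer libraries. Some of these differences were small or rested on few UMI. Bcl2 in WT day 4 stood at 5.92 against 5.88 CPM, and the other cells of WT day 10 held 0 Bcl2 and 5 Bcl2l11 UMI. The exception for Bcl2l11, Per2-/- day 4, was the largest gap (84.6 against 59.9 CPM). A cell with more UMI is more likely to hold both genes, and depth was not matched.

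For each member the genes with the most similar profile were taken over the 27 sums of neuron-like, fibroblast-like and macrophage-like cells, as a description of these sums, which share libraries and depth. Among 14783 genes, Bcl2l11 was most like Susd6 and Tmem123 (Pearson r 0.92 each), Mcl1 like Mapkapk2 and Clic1 (0.98 each), Bak1 like Syce2 and Gpx1 (0.99 each), Bid like Nceh1 and Atp6v1b2 (0.98 each), Bcl2l1 like Eif1ad and Coro1c (0.97 each) and Bcl2 like Htra2 (0.96) and Pkmyt1 (0.95). The nearest genes were Zfpl1 (0.97) and Gaa (0.94) for Bad, Acyp1 (0.94) and Fam196a (0.92) for Bbc3, Dhx35 (0.92) and Dhx16 (0.88) for Pmaip1, and Ppp2r5c (0.88) and Cdc34 (0.87) for Bax. Bax thus had the lowest best match of the 10.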

How the data were processed

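Single-cell RNA of 9 cultures was read with 10x Genomics 3′ v3.1 chemistry, 1 library for each of 3 genotypes on each of 3 days. The authors deposited filtered Cell Ranger matrices of raw UMI counts per gene and cell, aligned to mouse. The headers of the deposited matrices name Cell Ranger 4.0.0 for days 4 and 7 and 6.0.0 for day 10, while the submitters' processing notes name 7.1. The day 10 table lists 32285 genes and the others 31053, so the 30406 shared identifiers were used, which held 99.3% to 99.9% of UMI. Cells under 3000 UMI or above 20% mitochondrial reads were dropped. Doublets were removed by rank of the Scrublet score, 0.8% of barcodes per 1000 barcodes in the matrix (8442 cells).

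The cells were clustered in scanpy 1.11.5 (python 3.11.15) on 2000 variable genes, 30 principal components and 15 neighbors with Leiden resolution 1, which gave 27 clusters, leaving out 95 genes (the members, the listed apoptosis genes, mitochondrial genes and sex-linked genes). A cluster was named when its markers had a mean log2 fold of at least 1 and at least 3 of them were 2-fold higher and present in 10% of its cells. Other clusters were called fibroblast-like when 10 or more of 15 markers were present in 50% of cells. Their fibroblast marker level also had to reach a set part of the highest, with every other class under a mean log2 fold of 0.5. Named clusters were unnamed again for over 50% doublets, fewer than 50 cells, more leading genes of another class or low UMI. The limit on UMI that left a cluster of 1371 cells unnamed was set after seeing the data. That cluster held 0% of the day 4 cells, 0.0635%, 0.0166% and 0.0102% of the day 7 cells (WT, Per1-/-, Per2-/-) and 23.9%, 0.131% and 0.0951% of the day 10 cells. In all, 10369 cells (14.1%) stayed unnamed.

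UMI counts were summed per class and library (at least 20 cells) and tested in edgeR 4.0.16 (R 4.3.3) by the quasi-likelihood test after TMM scaling, with the library as a block between classes and with day and genotype as factors within a class. P-values were adjusted by Benjamini-Hochberg over all genes that passed the low count filter, with a threshold of 0.05. Since each genotype and day has 1 library, each factor borrows its replicates from the other. DESeq2 1.42.0 was an alternative. The interaction was fitted over the neuron-like and fibroblast-like sums of all libraries. The script was tested on simulated counts. The members and the gene lists were chosen with earlier results of these data known. Named genes of the lists were those with the largest folds in each direction among called genes, 5 each way between classes and 2 each way over days and in the interaction, and the day 7 value of Bmf was added after its value was seen. A listed gene that this rule also names is not reported here. The fits within 1 neuron-like cluster and with the low-UMI cluster counted as neuron-like were added after seeing the data. Pearson r was taken on log2 normalized CPM. Intervals and floors cover counting error only. No column of per-sample values was left unmapped.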

Additional observations from a re-analysis of the deposited data

Results flagged for a closer look

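The change over days differed between neuron-like and fibroblast-like cells for 8 values, by the interaction term in edgeR. Against day 4, the difference of the log2 changes on day 7 was −0.76 ± 0.14 for Bcl2l11 (adjusted p 0.00606), −0.33 ± 0.08 for Mcl1 (adjusted p 0.0194) and 0.45 ± 0.14 for Bid (adjusted p 0.0458). On day 10 it was −1.61 ± 0.16 for Bcl2l11 (adjusted p 4.35e-05), −0.57 ± 0.08 for Mcl1 (adjusted p 4.41e-04), 0.76 ± 0.15 for Bak1 (adjusted p 0.00291), 0.65 ± 0.14 for Bid (adjusted p 0.00407) and 0.32 ± 0.11 for Bax (adjusted p 0.0473). Negative values mean that neuron-like cells fell by more or rose by less. The 2 neuron-like clusters changed in share over the same days, and none of the 5 differences of day 10 passed within either cluster alone. None of the 3 differences of day 7 passed when the unnamed low-UMI cluster was counted as neuron-like.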

How the results depend on the processing

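In the comparisons between classes, the sign of a member with a call on either side turned with counts scaled to total UMI and under no other alternative run, for Bax against fibroblast-like (0.36) and macrophage-like cells (0.075) and for Bad against macrophage-like (0.33) and Schwann-like cells (0.17). Within the Snhg11 cluster alone (cluster 6) the sign turned for Bcl2 on day 7 (−0.16) and day 10 (−0.13), Bcl2l1 (0.21) and Bad (−0.12) on day 10, and for the interactions of Bcl2l11 on day 7 (0.17) and of Bcl2l11 (0.11), Mcl1 (0.11) and Bax (−0.0030) on day 10, and within the Miat cluster alone (cluster 0) for the day 10 interactions of Bax (−0.24) and Bak1 (−0.14). Pmaip1 could not be fitted over days within cluster 6. Counts past the threshold moved by over 1.5 times as follows, and the cause was not tested. For neuron-like cells on day 7 (3283 genes), 2 members and 529 genes passed with the low-UMI cluster counted as neuron-like, 2028 genes in cluster 0, and 0 members and 58 genes in cluster 6. On day 10 (6745 genes), 4036 genes passed with the low-UMI cluster, 2 members and 516 genes in cluster 0, and 1 member and 975 genes in cluster 6. For the interaction on day 7 (3035 genes), 0 members and 551 genes passed with the low-UMI cluster and 0 members and 46 genes in cluster 6, and on day 10 (6234 genes) 3823 genes passed with the low-UMI cluster, 0 members and 585 genes in cluster 0, and 0 members and 794 genes in cluster 6. For neuron-like Per1-/- (0 genes), 5 genes passed in DESeq2, 167 with no low count filter, 1 at Leiden resolution 2, 2 in cells with Snap25 and Syt1, 1 in cluster 0 and 10 in cluster 6. For neuron-like Per2-/- (2 genes), 11 genes passed in DESeq2, 1 member and 203 genes with no low count filter, 1 gene in cluster 0, 10 in cluster 6, and 0 with doublets kept, Leiden resolution 2, Snap25 and Syt1, the low-UMI cluster or no day term. For fibroblast-like cells, DESeq2 called 2 members and 1486 genes on day 7 (464 genes in edgeR), 5 members on day 10, 1 member and 210 genes for Per1-/- and 1 member and 129 genes for Per2-/- (0 genes each), and on day 7 111 genes passed at Leiden resolution 2 and 264 with no genotype term. For macrophage-like cells, DESeq2, no low count filter and no genotype term gave 470, 509 and 1 genes on day 7 (52 genes), no genotype term gave 0 members and 940 genes on day 10 (1992 genes), DESeq2, no filter and no day term gave 62, 52 and 0 genes for Per1-/- (1 gene), and DESeq2 and no filter 139 and 125 genes for Per2-/- (0 genes). Leaving out 1 library at a time gave 7 to 9 members and 13295 to 13733 genes for neuron-like against fibroblast-like cells, 10 and 12659 to 12894 against macrophage-like, 7 and 9877 to 10258 against Schwann-like, and 9 to 10 and 13545 to 13944 for macrophage-like against fibroblast-like cells. The same gave 3 to 5 members and 1806 to 3655 genes for neuron-like cells on day 7 and 5 to 7 and 5426 to 6547 on day 10, 0 and 0 to 20 for Per1-/- and 0 to 1 and 0 to 45 for Per2-/-. It gave 0 to 1 and 0 to 541 for fibroblast-like cells on day 7, 1 to 3 and 1166 to 2569 on day 10, 0 and 0 to 496 for Per1-/- and 0 and 0 for Per2-/-, and for macrophage-like cells 0 and 0 to 281 on day 7, 0 to 3 and 387 to 2079 on day 10, 0 and 1 to 11 for Per1-/- and 0 to 4 and 0 to 1226 for Per2-/-. For the interaction it gave 1 to 4 and 1444 to 3435 on day 7 and 4 to 5 and 4792 to 6351 on day 10. Of 2076 single values of members under other settings, 73 changed sign with neither value past the threshold. The part of genes called higher on day 10 in macrophage-like cells went from 53.6% to 35.5% with total UMI scaling, and on day 7 from 67.3% to 52.5%. The labels give no replicate numbers to pair libraries by. Genotype was a term when days were compared, and the library was the block between classes.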
